A study of Mus musculus with 8 samples.

Results

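The 10 genes described here had some of the greatest pulldown differences in ventral pallidal tissue with tagged glutamatergic neurons: Ltbp1, Rad9b, Egfr, Nrg4, Yeats2, Ubr3, Galnt12, Svep1, Krt20 and Celsr1. The 10 genes, of 14353 in the table, were chosen by measured values, namely a large mean of TRAP minus INPUT log2 CPM (reads scaled to the size of the library) over 4 pools, so this difference is given as a description and was not tested. The question was how the difference was spread over the pools and how much of each gene the INPUT held. TRAP (translating ribosome affinity purification) is mRNA pulled down with HA-tagged ribosomes, and INPUT is, by the labels, lysate mRNA set aside before the pulldown. The study's methods differ on this point, since their sequencing section speaks of the unbound fraction. If the unbound fraction was sequenced, every difference given here is against that fraction. All 8 libraries came from the ventral pallidum (VP) of untreated mice homozygous for VGluT2-Cre and heterozygous for the RiboTag allele of Rpl22, in which Cre puts the HA tag on the ribosomal protein RPL22. Each pool gave 1 TRAP and 1 INPUT library from the same tissue. Pool VP1.6 held 7 mice (3 male and 4 female) aged 9 to 12 weeks, VP2.2 and VP2.11 each held 10 mice (4 male and 6 female), and VP2.6 held 11 mice (4 male and 7 female), the latter 3 at 10 to 16 weeks. The tag marks every cell of the dissected tissue in which this Cre has been active, pools hide differences between mice and sexes, and pool and age group cannot be told apart for VP1.6.

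The 10 genes come from several unrelated systems. Egfr encodes a receptor tyrosine kinase of the ErbB family and Nrg4 encodes a neuregulin, a ligand of the same family, in which ligand binding leads to receptor dimers and intracellular phosphorylation. Ltbp1, Svep1 and Celsr1 encode large secreted or cell-surface proteins: a protein that holds latent TGF-beta in the extracellular matrix, a matrix protein with EGF-like domains, and an adhesion receptor of the cadherin superfamily that takes part in planar cell polarity. Krt20 is an epithelial keratin and Galnt12 starts mucin-type O-glycosylation in the Golgi. Yeats2 reads acylated histone tails as a subunit of the ATAC acetyltransferase complex, Ubr3 is a ubiquitin ligase, and Rad9b is a paralogue of the checkpoint clamp subunit RAD9A. In glutamatergic neurons, Slc17a6 encodes the vesicular glutamate transporter vGluT2 whose promoter drives this Cre.

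Of the 10 genes, 7 were above INPUT in all 4 pools, against 23.3% of the 14249 genes tested. In those 7 every TRAP library was also above every INPUT library, and the same held for 23.3% of genes tested. Over genes tested, the same 3320 genes met both conditions, so the lack of overlap is not a second result. The 3 members not above INPUT in all 4 pools were Rad9b, Svep1 and Celsr1, and in each of them VP1.6 was the pool in which TRAP was below INPUT. Ltbp1, Yeats2, Ubr3 and Galnt12 were above INPUT by at least 1 log2 unit in every pool (2.72% of genes tested). Because the members were chosen on this contrast, nothing is read from these shares. No gene rested on 1 pool: with its largest pool left out, the mean difference of the remaining 3 pools was at least 2.00 log2 units in each of the 10, and that lowest value belonged to Celsr1.

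The values of the 10 genes fell into a steady and an uneven kind (plot of each gene's level joined by pool). In 7 of the 10 the difference was lowest in VP1.6 and highest in VP2.11, an order found in 8.51% of genes tested. VP1.6 held the highest INPUT value of 8 members and the lowest TRAP value of 8 members. VP2.11 held the highest TRAP value of 9 members. Over all genes tested, VP1.6 held the highest INPUT value in 25.6% and VP2.11 the highest TRAP value in 34.1%. The members were chosen on the mean of these same differences, so nothing is read from these shares. TRAP and INPUT levels that ran opposite ways over pools were common in the table. In 77.8% of gene-pool pairs over genes tested, TRAP and INPUT deviated in opposite directions from the gene's mean in each fraction. This held for 19 of 40 pairs in the members.

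**Figure D1:**
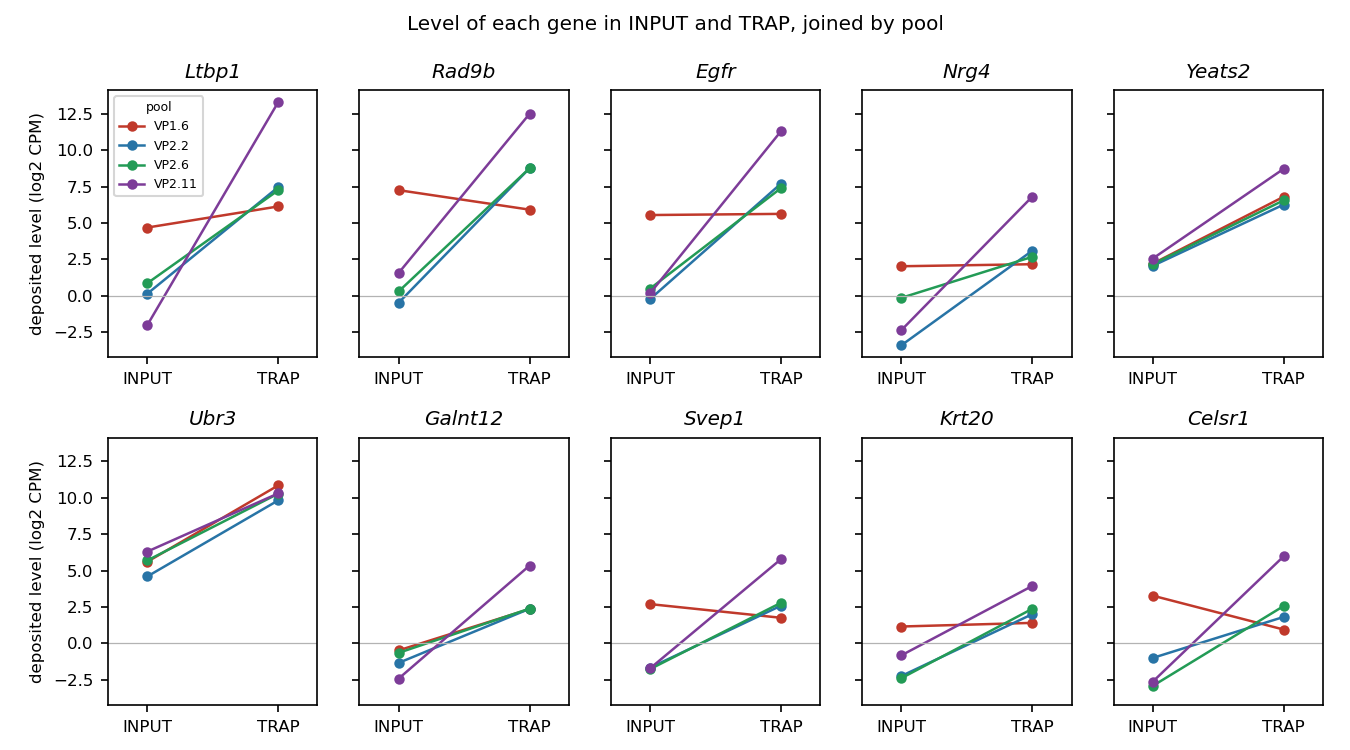
Deposited level (log2 CPM) of each of the 10 genes in INPUT and TRAP, with 1 point per library and a line joining the libraries of a pool. Yeats2 and Ubr3 climb by a similar amount in all 4 pools, while for Rad9b, Svep1 and Celsr1 the VP1.6 line goes down and the VP2.11 line is the steepest.

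The gene starts of the 3 members with the greatest mean difference are shown because these members shared the VP1.6 to VP2.11 order, and those of Ubr3 and Krt20 are shown beside them, as a steady gene with a high INPUT and a keratin with a low one. The RefSeq promoter table (GRCm38.p6) held 9 windows of 300 bases, from 250 bases before to 50 bases after a gene start, for 8 members and held none matched to Galnt12 or Celsr1. The sequences are written in the direction of the gene, and capitals mark matches to 3 short motifs on either strand. The letters of the TATA motif searched for were TATAAA. The motif known as the CAAT box was searched for with the letters CCAAT. The motif bound by SP1-like factors, or GC box, was searched for with the letters GGGCGG. The windows lie at chr17:75005279-75005578 (Ltbp1, plus strand, the more upstream of its 2 windows), chr5:122354156-122354455 (Rad9b, minus strand), chr11:16751953-16752252 (Egfr, plus strand), chr2:69896996-69897295 (Ubr3, plus strand) and chr11:99438104-99438403 (Krt20, minus strand).
Ltbp1: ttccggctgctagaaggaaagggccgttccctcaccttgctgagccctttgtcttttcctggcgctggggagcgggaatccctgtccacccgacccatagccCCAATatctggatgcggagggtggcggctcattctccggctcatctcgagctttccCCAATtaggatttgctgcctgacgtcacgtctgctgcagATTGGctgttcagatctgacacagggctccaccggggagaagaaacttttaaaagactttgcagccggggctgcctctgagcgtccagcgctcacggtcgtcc
Rad9b: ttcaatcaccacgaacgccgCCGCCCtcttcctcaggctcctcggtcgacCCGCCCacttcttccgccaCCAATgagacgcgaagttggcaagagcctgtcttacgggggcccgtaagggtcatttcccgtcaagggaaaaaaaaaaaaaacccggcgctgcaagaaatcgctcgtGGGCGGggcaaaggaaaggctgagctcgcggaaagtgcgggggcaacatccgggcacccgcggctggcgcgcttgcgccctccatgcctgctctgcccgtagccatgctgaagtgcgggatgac
Egfr: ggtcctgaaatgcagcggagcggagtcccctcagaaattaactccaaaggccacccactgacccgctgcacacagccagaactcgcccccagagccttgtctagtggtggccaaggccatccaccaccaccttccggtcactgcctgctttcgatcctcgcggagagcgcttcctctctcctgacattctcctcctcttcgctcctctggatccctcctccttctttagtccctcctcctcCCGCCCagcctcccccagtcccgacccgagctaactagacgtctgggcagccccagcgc
Ubr3: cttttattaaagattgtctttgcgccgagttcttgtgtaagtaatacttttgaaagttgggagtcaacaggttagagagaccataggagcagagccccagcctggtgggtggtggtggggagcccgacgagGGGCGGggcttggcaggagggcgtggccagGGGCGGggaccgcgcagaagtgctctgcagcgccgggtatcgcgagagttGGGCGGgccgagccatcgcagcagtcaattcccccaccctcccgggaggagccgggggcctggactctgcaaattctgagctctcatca
Krt20: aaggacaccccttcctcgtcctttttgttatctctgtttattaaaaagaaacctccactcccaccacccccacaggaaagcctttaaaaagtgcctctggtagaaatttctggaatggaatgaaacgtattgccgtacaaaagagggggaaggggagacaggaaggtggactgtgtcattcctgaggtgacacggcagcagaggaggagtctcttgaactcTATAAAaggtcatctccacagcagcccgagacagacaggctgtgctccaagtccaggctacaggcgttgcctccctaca
The 3 members with the greatest difference did not hold the same letters. The upstream Ltbp1 window had 3 matches to CCAAT and none to the others, Rad9b had 3 to GGGCGG and 1 to CCAAT, and Egfr had 1 to GGGCGG. Ubr3 had 3 matches to GGGCGG and Krt20 had 1 to TATAAA. Over the 9 member windows, TATAAA was present in 2, CCAAT in 2 and GGGCGG in 4, against 13.6%, 37.4% and 35.7% of all 32851 windows in the table. No match overlapped another in the windows printed. A match is a string of letters and not a mapped site.

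Ubr3 and Yeats2 showed the most even differences. Ubr3, at chr2:69897246-70024013 on the plus strand, had TRAP levels of 10.85, 9.82, 10.28 and 10.30 log2 CPM in VP1.6, VP2.2, VP2.6 and finally VP2.11, the order of pools used for all values below. Its INPUT levels were 5.60, 4.59, 5.69 and 6.30 log2 CPM in the same order. Every TRAP library was thus well above every INPUT library, and VP2.2 was the lowest of both fractions. The 4 differences were 5.25, 5.23, 4.59 and 4.00, with a mean of 4.77 ± 0.60 (SD, n = 4 pools). The smallest of them was in VP2.11, which was so in no other member. Its mean INPUT was at the 74.9th percentile of INPUT levels among genes tested and its mean TRAP at the 99.5th percentile of TRAP levels, neither scaled for gene length.

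Yeats2 (chr16:20141063-20232573, plus strand) stood at 6.80, 6.26, 6.55 and 8.72 log2 CPM in TRAP. In INPUT it stood at 2.2, 2.05, 2.17 and 2.55 log2 CPM, the narrowest INPUT spread of the 10 genes (SD 0.21). Its differences of 4.60, 4.21, 4.39 and 6.17 gave a mean of 4.84 ± 0.90. The 3 pools other than VP2.11 lay within a narrow range of each other, and their mean difference was 4.40.

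Galnt12 (chr4:47091909-47123070, plus strand), a polypeptide GalNAc transferase, was near-identical in TRAP in 3 pools, at 2.35, 2.37 and 2.38 log2 CPM in VP1.6, VP2.2 and VP2.6, and reached 5.34 in VP2.11. Its deposited INPUT was under 1 CPM in all 4 pools, at -0.49, -1.35, -0.66 and -2.43 log2 CPM, while its reads in VP2.2, given below, amount to 1.27 CPM. The groups did not overlap, and VP2.11 had both the highest TRAP and the lowest INPUT value. The differences were 2.84, 3.72, 3.04 and 7.77, with a mean of 4.34 ± 2.32 and a mean of 3.20 without VP2.11.

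Ltbp1 (chr17:75005568-75392512, plus strand) had the greatest mean difference of all genes tested. Its TRAP levels were 6.13, 7.46, 7.24 and 13.30 log2 CPM, so that the deposited level was 10090 CPM in VP2.11 against 70.0 CPM in VP1.6. Its INPUT levels ran the other way, at 4.68, 0.13, 0.85 and -2.03 log2 CPM. VP1.6 was the highest INPUT and the lowest TRAP library, VP2.11 was the reverse, and the groups still did not overlap. The differences were 1.45, 7.33, 6.38 and 15.33, with a mean of 7.62 ± 5.75, and the mean was 5.05 without VP2.11 and 9.68 without VP1.6.

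Egfr (chr11:16752203-16918158, plus strand) was above INPUT by 0.08 log2 units in VP1.6, which is a near-equal level. Its TRAP levels were 5.62, 7.70, 7.39 and 11.30 log2 CPM. Its INPUT levels were 5.54, -0.24, 0.48 and 0.16 log2 CPM. Outside VP1.6 the deposited INPUT was 0.849 to 1.39 CPM, and in VP1.6 it was 46.5 CPM. The INPUT reads in VP2.2, given below, amount to 3.85 CPM, and the reads in VP1.6 are unknown. The differences in VP2.2, VP2.6 and VP2.11 were 7.94, 6.91 and 11.14, and the mean over all 4 pools was 6.52 ± 4.65.

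Rad9b (chr5:122323223-122354233, minus strand) showed the same picture with the sign turned in VP1.6. TRAP levels were 5.91, 8.76, 8.76 and 12.50 log2 CPM. INPUT levels were 7.25, -0.49, 0.29 and 1.56 log2 CPM, and the VP1.6 INPUT was above the VP1.6 TRAP library. The difference was -1.34 in VP1.6 and 9.24, 8.48 and 10.94 in the other pools (mean 6.83 ± 5.54, with 9.55 without VP1.6 and 5.46 without VP2.11). Rad9b shares 1002 exon bases, 23.2% of its exon length, with Pptc7 on the opposite strand. Whether the counting used strand is not given in the sources used here, and the mean difference of Pptc7 was -0.32.

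Nrg4 (chr9:55220222-55326844, minus strand), the ErbB ligand, was at 2.16, 3.09, 2.67 and 6.81 log2 CPM in TRAP and at 2.02, -3.41, -0.15 and -2.37 log2 CPM in INPUT. Its levels in VP1.6 were almost equal, with a difference of 0.14. The other differences spread widely, at 6.50, 2.82 and 9.18, and the mean was 4.66 ± 3.99. Nrg4 shares 368 exon bases (6.06%) with Fbxo22 on the opposite strand, whose mean difference was 0.13.

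Svep1 (chr4:58042442-58206859, minus strand) was at 1.75, 2.58, 2.78 and 5.78 log2 CPM in TRAP. In INPUT it was at 2.69 log2 CPM in VP1.6 and at -1.68, -1.78 and -1.73 in the other pools, so the VP1.6 INPUT library alone crossed into the range of the TRAP libraries. The differences were -0.94, 4.26, 4.56 and 7.51 (mean 3.85 ± 3.51, with 5.44 without VP1.6 and 2.63 without VP2.11). A lincRNA on the opposite strand, Gm26889, shares 13.9% of the exon bases of Svep1.

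Celsr1 (chr15:85898929-86033777, minus strand) had the most negative VP1.6 difference of the 10, at -2.33. TRAP levels were 0.94, 1.81, 2.56 and 5.98 log2 CPM, and INPUT levels were 3.27, -1.01, -2.93 and -2.64 log2 CPM. TRAP was lowest where INPUT was highest. The remaining differences were 2.82, 5.50 and 8.62, so the mean of 3.65 ± 4.64 was smaller than its own spread over pools, and it was 2.00 without VP2.11 and 5.65 without VP1.6.

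Krt20 (chr11:99428403-99438150, minus strand) had TRAP levels of 1.4, 2.00, 2.37 and 3.94 log2 CPM. Its INPUT levels were 1.15, -2.25, -2.40 and -0.83 log2 CPM. VP1.6 again had the highest INPUT and the lowest TRAP value. The difference was 0.25 in VP1.6 and 4.25, 4.77 and 4.77 in VP2.2, VP2.6 and VP2.11, with a mean of 3.51 ± 2.19.

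**Figure D2:**
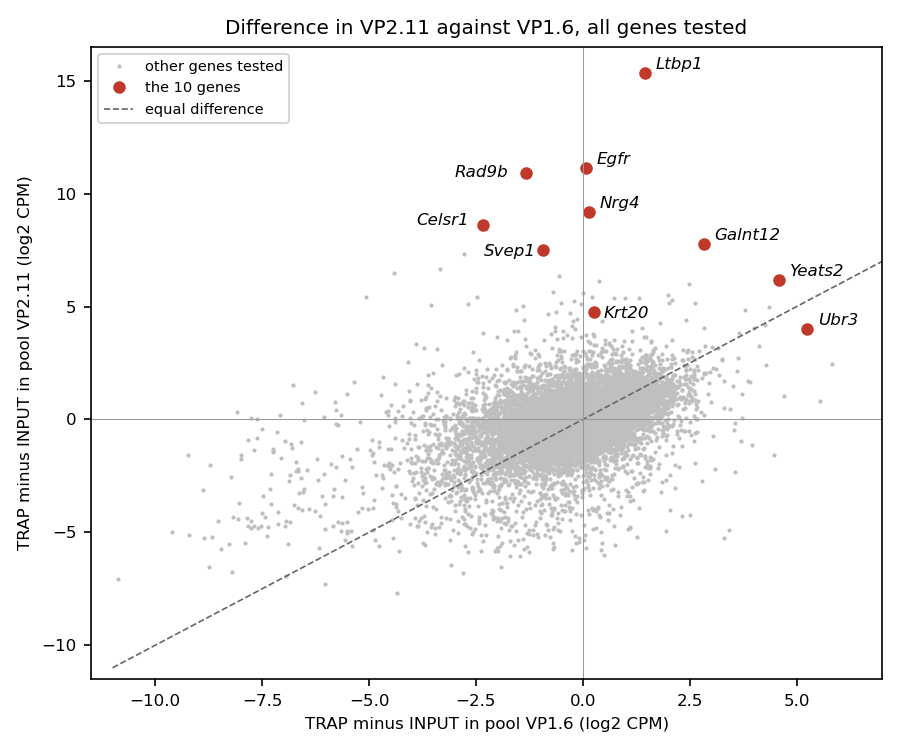
TRAP minus INPUT difference (log2 CPM) in VP2.11 against that in VP1.6 for the 14249 genes tested, with the 10 genes in red and a dashed line where both pools are equal. Ubr3 lies below the line and Yeats2 just above it, Galnt12 and Krt20 lie further above it, and the other 6 lie at least 5 log2 units above it.

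The 6 genes that lie at least 5 log2 units above the line of equal differences, Ltbp1, Rad9b, Egfr, Celsr1, Nrg4 and Svep1, were among 86 genes tested with such a gap between VP2.11 and VP1.6. The mean that chose the members holds both of these differences, so nothing is read from that count. Cell type markers did not all follow the order of VP1.6 below VP2.11. Slc17a6 was above INPUT by 2.78, 3.17, 2.40 and 1.84 log2 units over the pools, so the transcript of the Cre driver gene was above INPUT in VP1.6 too and by the least in VP2.11. Neurod1, a neuronal transcription factor, was above INPUT by 3.17, 2.22, 2.79 and 3.18. All 4 fibroblast markers were measured, and their median difference was -2.91 in VP1.6, -1.49 in VP2.2, -1.99 in VP2.6 and 0.45 in VP2.11. Their summed level was 10.7 to 45.9 CPM in TRAP and 43.4 to 95.2 CPM in INPUT. In VP2.11 Col1a2 differed by -2.17 and the other fibroblast markers by 0.41 to 0.96. Of 4 endothelial markers 3 were measured, with median differences of 0.26, 0.91, -0.34 and 2.24 in the same order of pools and summed levels of 5.94 to 25.2 CPM in TRAP and 4.63 to 6.30 CPM in INPUT. Marker medians in VP1.6 and VP2.11 were -0.875 and -0.29 for GABA neurons, -1.80 and -1.03 for astrocytes and -1.83 and -1.99 for oligodendrocytes. They were -0.274 and 0.49 for oligodendrocyte precursors, -2.67 and -1.9 for microglia and -0.749 and 0.41 for mural cells. For ependymal and choroid plexus markers they were -3.48 and -2.02. The epithelial markers Cdh1 and Epcam were not among the genes tested. The part of these cell types in the members' differences was not tested, and in these bulk libraries fewer cells of a type and less RNA per cell cannot be told apart.

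The INPUT levels of the 10 genes were low for the most part. On the deposited scale the mean INPUT log2 CPM of Galnt12, Krt20, Nrg4, Celsr1 and Svep1 was below 0, and all 5 were below the 1st percentile of mean INPUT level, which is not scaled for gene length. All 5 passed the filter of 1 CPM in at least 3 libraries through TRAP, as their INPUT was under 1 CPM in 3 or 4 pools. Genes low in both fractions were left out by that filter, so nothing is read from these low percentiles. Ltbp1, Egfr, Rad9b and Yeats2 were at the 8.86th, 15th, 23.4th and 24.6th percentiles, and Ubr3 was the exception already given. In TRAP the same 5 low genes were at the 29.7th (Krt20) to 46.3rd (Nrg4) percentile, whereas Yeats2, Egfr, Ltbp1 and Rad9b were at the 89.5th to 97.8th percentile of mean TRAP level. A difference against an INPUT of a few reads moves strongly with each read. On the log2(CPM + 1) scale, which dampens low values, the mean differences of these 5 were smaller by over 1.5 times: 2.00 for Krt20, 2.03 for Celsr1, 2.42 for Svep1, 2.76 for Galnt12 and 2.94 for Nrg4.

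Per kilobase of annotated exon, the median deposited TRAP level over pools was 129 CPM for Ubr3 and 100.4 CPM for Rad9b. Egfr (16.6 CPM per kilobase), Ltbp1 (15.3) and Yeats2 (8.85) followed, then Krt20 (2.38), Galnt12 (2.27) and Nrg4 (1.22), and Celsr1 (0.427) and Svep1 (0.399) came last. The ranges over 4 pools overlapped between all neighbours in that order of TRAP levels. In INPUT the order was Ubr3 (5.15 CPM per kilobase), Rad9b (0.482), Yeats2 (0.392), Galnt12 (0.224), Krt20 (0.201), Ltbp1 (0.136), Egfr (0.111), Nrg4 (0.0903), Celsr1 (0.0299) and Svep1 (0.0190). The INPUT ranges overlapped between neighbours except between Yeats2 and Galnt12. These orders rest on deposited levels, which carry shifts that differ between genes, so no order is read between neighbours: the VP2.2 INPUT of Galnt12 was 0.393 CPM as deposited and 1.27 CPM by its reads. The genes were long as a group, with 8 of 10 above the median exon length of 4274 bases and a median of 10205 bases.

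The low values gave the reads behind some of these levels. In VP2.2 and VP2.6, the deposited differences of 75.4% and 81.9% of genes matched a ratio of whole reads within 3e-09 log2 units, which put the effective size of the VP2.2 libraries at 12.8 M (TRAP) and 38.7 M reads (INPUT), and that of the VP2.6 libraries at 12.1 M (TRAP) and 24.1 M reads (INPUT). The rounding of 1 library of VP1.6 and of both libraries of VP2.11 to 3 significant digits hides the reads there, and the depth is unknown. In VP2.2, Ltbp1 had 7630 TRAP and 143 INPUT reads, Egfr had 12110 and 149, and Rad9b had 27172 and 135. Galnt12 had 215 and 49 reads, and Svep1 had 269 and 42. In VP2.6, Rad9b had 16221 TRAP and 90 INPUT reads. The INPUT of these genes was thus low, yet it rested on 42 to 149 reads where the reads were found.

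For the other members several pairs of read numbers gave the same difference, and the smallest pair is a lower bound. Nrg4 had at least 104 TRAP and 3 INPUT reads in VP2.2, and with these its difference of 6.50 had a 95% exact binomial interval of 5.13 to 9.01. Celsr1 had at least 10 and 4 reads in VP2.2, the smallest of 50 pairs that fit, with an interval of 1.13 to 5.05 around 2.82. A larger pair would narrow that interval. In VP2.6 Celsr1 had at least 79 and 3 reads, with an interval of 4.11 to 8.02 around 5.50. Krt20 had at least 122 and 19 reads in VP2.2 and at least 89 and 6 in VP2.6. In contrast, Ubr3 had at least 6913 and 557 reads in VP2.2, which gave an interval of 5.11 to 5.36 around 5.23. All 20 intervals of the 10 genes in VP2.2 and VP2.6 were above 0, but the members were chosen on these differences, so nothing is read from that. The intervals cover counting error only, and reads without molecular identifiers are not independent molecules.

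**Figure D3:**
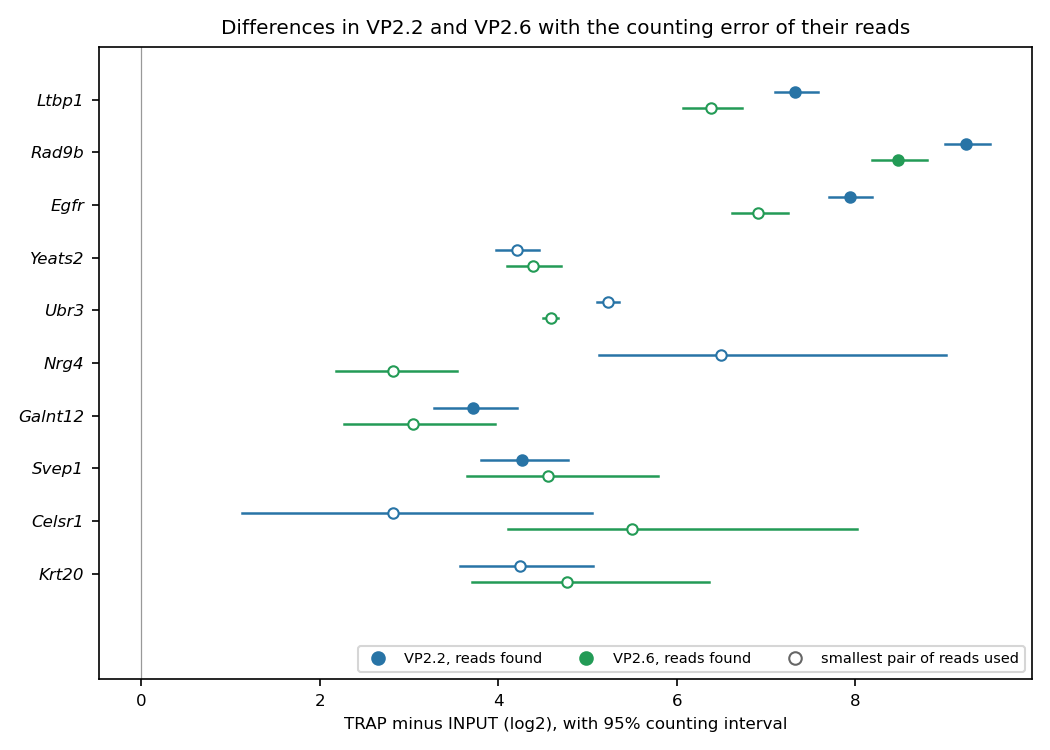
TRAP minus INPUT difference (log2) of each of the 10 genes in VP2.2 and VP2.6, with the 95% counting interval of the reads found (filled points) or of the smallest pair of reads that fits (open points). The interval of Celsr1 in VP2.2, 1.13 to 5.05, is among the widest and rests on the smallest of 50 pairs that fit. Those of Ubr3 are among the narrowest.

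Reads and deposited levels did not stand on the same scale in each pool. For Rad9b in VP2.2 the reads amounted to 2122 CPM in TRAP and 3.49 CPM in INPUT, against deposited levels of 433 and 0.715 CPM, a shift of -2.29 log2 units shared by both libraries. The shift in VP2.2 was -2.19 for Egfr, -1.76 for Ltbp1, -1.81 for Svep1 and -1.70 for Galnt12. The 1st percentile of the shift over matched genes was -1.03. In VP2.6 the shift was -1.62 for Rad9b, with a 1st percentile of -0.90. A single pair of reads is left only where the shift is low, since larger pairs then pass the 3 log2 units searched. That these shifts were so low was thus fixed by the search. For the other members, the smallest pairs in VP2.2 had shifts of -1.255 (Krt20), -0.033 (Yeats2), 0.057 (Nrg4), 0.741 (Ubr3) and 2.097 (Celsr1). A shift shared by both libraries leaves the difference within a pool as it was, but a level set against that of another pool, such as the high VP1.6 INPUT values, carries it. Whether a shift of this kind stands behind the VP1.6 or VP2.11 levels was not tested, because no reads could be found there. The SD over pools of the mean of TRAP and INPUT was 0.95 in the median member, against 0.13 in the median gene tested.

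By rank of the mean difference, the 10 genes held places 1 to 7 and 9 to 11 among genes tested. Fyb2, an adaptor protein gene with a mean difference of 3.86, took rank 8, with differences of 3.30, 6.78, 3.69 and 1.69 over the pools. Just inside the list were Celsr1 (3.65) and Krt20 (3.51), and genes just outside it included Skor1 (3.42), a transcriptional corepressor, and Gm26461 (3.34), a noncoding RNA gene. The values on either side of that limit are close to each other.

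The genes most like the members were found by the distance between 8 log2 CPM values, each gene centred on its own mean. C7, a complement component, and Kif24, a kinesin, were each among the 3 nearest genes of 6 members. The closest pair was Svep1 and C7, at a distance of 1.27, and C7 was also the nearest gene to Celsr1 (1.84). C7 differed by -2.21, 3.63, 3.70 and 7.72 between TRAP and INPUT over the pools, the same order as Svep1. Among the members Egfr and Rad9b were a close pair (2.02). Yeats2 and Galnt12 were nearest to each other among the members (2.10) and each had Skor1 as its nearest other gene, while Ubr3 had Cit, a citron kinase gene, as its nearest (2.38).

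The relatives and partners of the 10 genes gave a second view, since the choice of members did not use them. Of 113 such genes 82 were tested, and limma with Benjamini-Hochberg adjustment over all genes called 24 higher and 10 lower in TRAP, or 29.3% and 12.2%. Over all genes tested, 23.2% were called higher and 24.8% lower. With the pool as a replicate block the partner calls were 14 and 6, where 15.4% and 16.8% of all genes tested were called. The fit without the block treats both libraries of a pool as independent. Their deviations from group means correlated at -0.75 to -0.49, so the SE and adjusted p of that fit can be too small. The calls with the block are the more cautious ones. Without VP1.6, and likewise without VP2.6, 21 partners were called in either direction instead of 34. The median mean difference was 0.21 log2 units over the partners, -0.05 over all genes tested and 4.71 over the 10 members. No partner reached the members' range, which follows from the choice of members, since Fyb2 was the only other gene tested within it. The highest, Ubr4, was at rank 194.

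The ubiquitin ligases around Ubr3 were the only list in which every gene was called in the same direction. All 5 UBR box genes were higher in TRAP, and 4 stayed so with the replicate block. Ubr4 was at 155, 214, 160 and 251 CPM in TRAP and 74.0, 27.3, 69.8 and 62.7 CPM in INPUT over the pools, a difference of 1.81 ± 0.30 (SE, limma, Benjamini-Hochberg adjusted p = 0.00093). Ubr2 was higher by 1.24 ± 0.26 (adjusted p = 0.0033) and Ubr1 by 1.17 ± 0.33 (adjusted p = 0.013), both from limma with Benjamini-Hochberg adjustment. Ubr7 lost its call in limma with the block (adjusted p = 0.12) and was named here after its values were seen. Ubr3 itself, chosen for its large difference, was at 4.77.

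In the ErbB family around Egfr and Nrg4, 6 of 13 other ligands and receptors were tested, and 1 was higher and 2 were lower in limma with and without the block. The receptor gene Erbb4, whose product binds neuregulins, was higher by 1.12 ± 0.32 (limma, Benjamini-Hochberg adjusted p = 0.016), with 25.5, 44.3, 28.2 and 53.1 CPM in TRAP against 22.6, 8.95, 21.1 and 17.9 CPM in INPUT. The EGFR ligand genes Tgfa and Hbegf were lower, by -1.96 ± 0.31 (adjusted p = 0.00076) and -1.02 ± 0.25 (adjusted p = 0.0076) in limma with Benjamini-Hochberg adjustment. In limma with the block, their adjusted p was 0.00036 and 0.037. Of 8 adaptor and feedback genes, 3 were higher, and 2 with the block. Cbl and Cblb, ubiquitin ligases that act on activated receptors, were higher by 1.15 ± 0.28 and 1.12 ± 0.20, and kept their calls with the block. The other EGFR ligand genes of the list, Egf, Areg, Ereg, Btc and Epgn, were not among the genes tested.

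Of 9 genes tested in the list of latent TGF-beta binding proteins, fibrillins and TGF-beta genes, 2 were higher and 1 lower, with or without the block. Ltbp4, a relative of Ltbp1, was higher by 1.57 ± 0.33 (limma, Benjamini-Hochberg adjusted p = 0.0031), with TRAP levels of 7.10, 8.42, 7.81 and 20.7 CPM and INPUT levels of 3.41, 2.70, 3.68 and 3.68 CPM. VP2.11 was its highest TRAP library, as it was for Ltbp1. Of the TGF-beta ligand genes, Tgfb2 was higher by 1.06 ± 0.19 (adjusted p = 0.0013) and Tgfb3 lower by -1.42 ± 0.26 (adjusted p = 0.0017) in limma with Benjamini-Hochberg adjustment. In limma with the block, the adjusted p was 0.0066 for Tgfb2 and 0.014 for Tgfb3.

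Around Celsr1, 4 of 11 planar cell polarity genes tested were higher and 1 lower, and with the block 2 were called, both of them higher. Prickle1, a cytoplasmic polarity protein gene, was higher by 1.23 ± 0.20 (limma, Benjamini-Hochberg adjusted p = 0.00084). Celsr2, a direct paralogue of Celsr1, was higher by 0.96 ± 0.21 (limma, Benjamini-Hochberg adjusted p = 0.0036), at 84.4, 87.2, 92.7 and 162 CPM in TRAP and 60.6, 48.3, 55.0 and 47.5 CPM in INPUT. Celsr2 was thus above INPUT in VP1.6, the pool in which Celsr1 was below it.

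The relatives of the other members were called in both directions. In the GalNAc transferase list around Galnt12, 3 of 13 genes tested were higher and 1 lower, with 2 and 1 under the block. Galnt17 was higher by 1.07 ± 0.22 and Galnt16 by 0.76 ± 0.13, and Galnt6 was lower by -2.03 ± 0.55, with limma and Benjamini-Hochberg adjusted p = 0.0028, 0.0011 and 0.011. In limma with the block, these adjusted p were 0.018, 0.017 and 0.0089. In the list of ATAC complex and YEATS domain genes around Yeats2, 4 of 13 were higher and 2 lower. Only Tada2a, an adaptor subunit, kept its call with the block (0.67 ± 0.14). In the checkpoint clamp list of Rad9b, 1 of 10 genes tested was higher and 2 lower, and with the block only Rhno1 was called, as lower (-0.93 ± 0.28). Rad9a, the paralogue of Rad9b and its single tested relative by sequence, differed by -0.27 ± 0.18 (limma, Benjamini-Hochberg adjusted p = 0.23). Of 4 other keratin genes tested 1 was called, Krt10, which was lower by -2.17 ± 0.22. In the list of Svep1 and Tie pathway genes 1 of 3 tested was higher, Angpt1, named after its values were seen, and it lost that call with the block (limma, Benjamini-Hochberg adjusted p = 0.10).

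**Figure D4:**
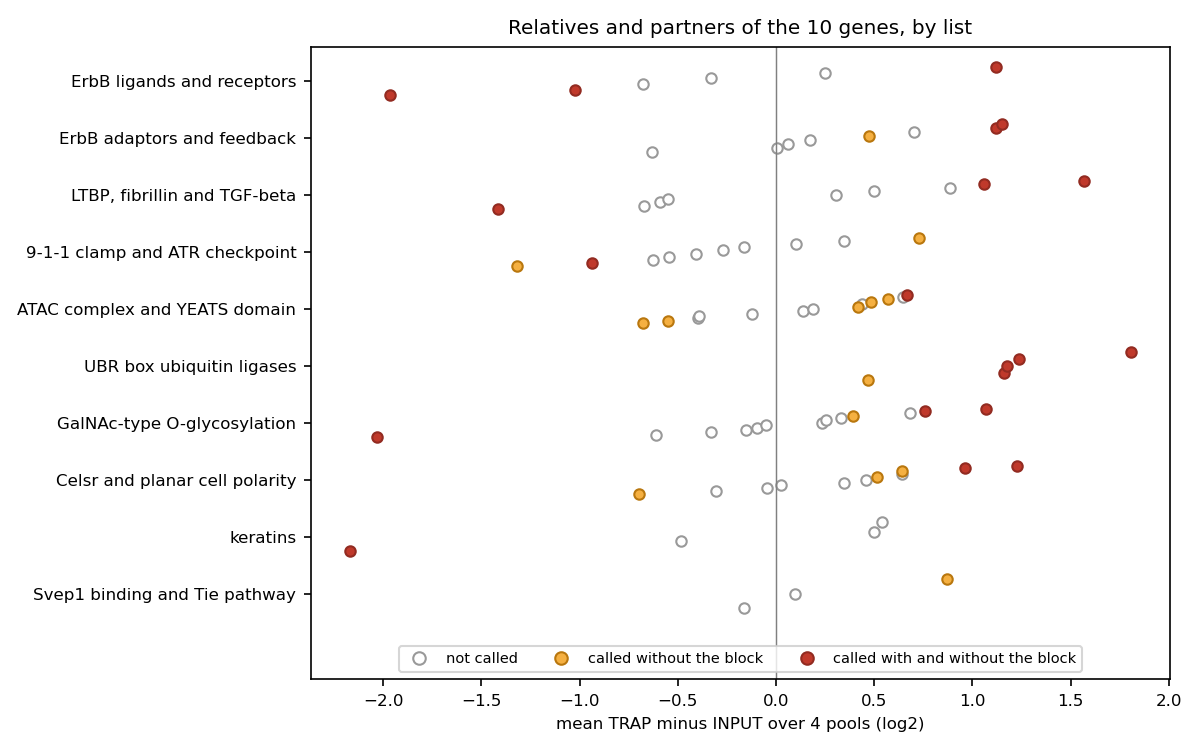
Mean TRAP minus INPUT difference (log2, 4 pools) of the 82 tested relatives and partners of the 10 genes, 1 point per gene and 1 row per list, coloured by whether limma called the gene without the replicate block, with and without it, or not at all. All partner genes lie at or below 1.81. The lowest mean difference of the 10 genes, which were chosen for large differences, is 3.51.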

How the data were processed

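Log2 CPM values of 4 TRAP and 4 INPUT libraries were used as deposited by the authors. Per the study's methods and labels, reads were aligned with STAR 2.5.1a to a GRCm38 mouse assembly, counted per gene, scaled by TMM and passed to limma with quality weights. The deposited file also holds the authors' own log2 fold changes with limits, p-values, a linear fold change and a transcript count, which were not used. The table has 14398 entries, of which 45 repeats of a gene were dropped, and 14249 of 14353 genes passed 1 CPM in at least 3 libraries.

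Members, gene lists and tests were chosen with earlier results of these data known. Partners were tested with limma 3.58.1 in R 4.3.3 (trended eBayes, two-sided, Benjamini-Hochberg adjusted p under 0.05). The fit was checked on simulated data with independent libraries and no pool effect, so that check does not cover the pairing by pool. Named partners were those called with and without the block, at most 3 a list by size of difference, and sole tested relatives. Named neighbours were non-members ranked above the lowest member, the 3 next below it, and the 3 nearest to each member, of which some are not reported here. Positions and exon lengths came from GENCODE M21. The labels give both libraries of a pool the same pool, and the extract protocol takes both from 1 homogenate. Deviations from group means correlated at -0.75 to -0.49 within pools and 0.05 to 0.44 between pools. The INPUT was taken as lysate, as in the extract protocol. The separate pools are the replicates. Reads were recovered by matching differences to ratios of whole reads plus 0.5, with shifts of up to 3 log2 units. Alternatives were the replicate block, no filter, log2(CPM + 1), median centring, array weights, an absolute fold change of at least 1 log2 unit and leaving out each pool.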

Additional observations from a re-analysis of the deposited data

Results flagged for a closer look

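In 4 of 30 groups of 4 values (TRAP level, INPUT level and difference of each of the 10 genes), 1 pool stood far from the others by Dixon's criterion at the 95% level, where chance flags about 1 in 20 independent groups. These groups are not independent, since the genes were chosen on these values and each difference comes from the other 2 values, so the count is a description. The INPUT of Egfr was 5.54 log2 CPM in VP1.6 and -0.24 to 0.48 in the other pools. The INPUT of Svep1 was 2.69 log2 CPM in VP1.6 and -1.78 to -1.68 in the others. The TRAP level of Galnt12 was 5.34 log2 CPM in VP2.11 and 2.35 to 2.38 in the others. These levels are deposited values that carry the shifts described above, and any shift in VP1.6 or VP2.11 is unknown. The TRAP minus INPUT difference of Krt20 was 0.25 log2 units in VP1.6 and 4.25 to 4.77 in the others.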

How the results depend on the processing

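Of all genes tested, 6830 were called in either direction, 3528 with an absolute difference of at least 1 log2 unit, and 4862 to 6894 with 1 pool left out. The partner calls numbered 34, and fell to 20 with the replicate block and to 17 with an absolute difference of at least 1. With array weights they were 48 (28 higher and 20 lower), and the calls over all genes were 8645. With 1 pool left out they numbered 21 (without VP1.6 and without VP2.6) to 33. The count of members above INPUT in every pool was 7, and 7 to 10 with 1 pool left out, the 10 being without VP1.6. The mean differences of all 10 members kept their sign under log2(CPM + 1), median centring, array weights, the median over pools and each pool left out. Without VP2.11 they were 2.00 to 5.46, with log2(CPM + 1) 2.00 to 6.64 and with array weights 3.01 to 6.17. All of these alternatives were planned. The reads behind VP1.6 and VP2.11 are unknown, and with 4 pools a pool cannot be told apart from what else differed between them.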
